A study of Arabidopsis thaliana with 12 samples.

Results

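The genes described here are 10 Arabidopsis thaliana loci known from root hairs: the regulators RHD6 (AT1G66470) and RSL4 (AT1G27740), and RHD2 (AT5G51060), COBL9 (AT5G49270), EXPA7 (AT1G12560), EXPA18 (AT1G62980), XTH14 (AT4G25820), PRP1 (AT1G54970), PRP3 (AT3G62680) and LRX1 (AT1G12040), which act at the surface or in the wall of the cell. They are 10 of the 25665 loci on the array, were chosen by name with their levels on these 12 arrays already known, and are each read by 1 probe. Because the choice used all groups, their values are a description and carry no test. All 10 passed the filter on dim probes, detection on every array of 1 group or more, as 20267 loci did, and LRX1 passed it only through WIN1SRDX.

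RNA came from whole Columbia-0 seedlings, 3 weeks old, raised on MS agar with 1% sucrose in days of 16 h of light at 23 °C. Of the 12 samples, 4 were wild type, 4 carried 35S:MYB106SRDX:NOS and 4 carried 35S:WIN1SRDX:NOS, called MYB106SRDX and WIN1SRDX below. The 35S promoter is active in most tissues, and a factor fused to SRDX, a short repression domain, acts as a repressor. MYB106 belongs to the MYB factors and is known from the shoot epidermis, and WIN1 is an AP2/ERF factor of the cuticle, so the comparisons ask which transcripts differ when a repressor form of either is made. The labels do not say how many transgenic lines the seedlings came from. Each sample held several seedlings of a plate and no separate cultures are named, so the p-values given for other genes speak of the spread between samples alone, and that spread may be technical.

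Root hairs are tubes that single cells of the root epidermis push out, and they widen the surface through which the root takes up water and ions. In a hair cell the bHLH factor RHD6 starts a cascade in which RSL4 drives growth of the hair, while WER and GL2 hold neighbouring cells in the non-hair fate. The growing tip needs reactive oxygen from the NADPH oxidase RHD2 and a wall that expansins and xyloglucan-modifying enzymes loosen and that structural proteins such as PRP3 and LRX1 build.

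Between 59.3% and 64.2% of the spots of an array were well above background and none was saturated. Arrays of a group correlated at 0.972 to 0.991. As a check of the labels, the signal of MYB106 was 4.17 ± 0.94 (SD, n = 4) in MYB106SRDX against -2.29 ± 0.65 (SD, n = 4) in wild type, and that of WIN1 was 5.60 ± 0.20 (SD, n = 4) in WIN1SRDX, with only 2 of the 4 wild-type arrays detecting it. Levels are log2 signals minus the 75th percentile of the spots on that array, so a gene at 0 is as bright as that percentile, and they are compared between groups for the same probe only. Differences are between group means on the same log2 scale, with the standard error (SE) of the fit, which pools the spread of all groups. An array is called below background for a gene where the scanner software did not mark the spot as well above background. Such a signal can still exceed the detection limit. Where every array of a group lay below background, the difference is also given as a bound. In it, signals below the detection limit of the array are raised to that limit. A bound holds for this processing, and another background correction gave smaller differences for some genes.

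In MYB106SRDX seedlings, the means of all 10 genes lay below wild type, 8 of them by 2.87 to 7.37 on the log2 scale as measured. For the 4 of them that no MYB106SRDX array detected, the bounds ran from -5.44 for COBL9 to -1.53 for PRP1. RHD2 and LRX1 differed by less than their SE. In WIN1SRDX seedlings the means of all 10 genes lay above wild type, by 0.65 to 3.34. The median difference over the 10 genes was -4.36 in MYB106SRDX (-4.06 with bounds) and 1.77 in WIN1SRDX, where the median over all tested genes was -0.05 and 0.001. The size of the MYB106SRDX differences depended on the background correction: with normexp, which raises dim signals, the median was -1.80, XTH14 kept -3.24 and COBL9 -2.99, and PRP1 and PRP3 came to -0.21 and -0.24.

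RHD6, the bHLH factor at the head of the hair programme, read -2.75, -3.49, -2.50 and -2.84 on the wild-type arrays, replicates 1 to 4. In MYB106SRDX it read -7.70, -8.14, -8.07 and -6.30, and only the array at -6.30 was well above background. In WIN1SRDX it read -0.41, -2.61, -0.99 and -0.69. The MYB106SRDX arrays thus lay below all the others, and the WIN1SRDX array at -2.61 lay just below the highest wild-type array while the other 3 lay above it. The difference from wild type was -4.66 ± 0.52 (SE, n = 4) in MYB106SRDX, which rests partly on signals near background, and 1.72 ± 0.52 (SE, n = 4) in WIN1SRDX.

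RSL4, the bHLH factor that acts after RHD6 and sets how far a hair grows, read -3.04, -3.30, -2.44 and -2.56 in wild type. No MYB106SRDX array detected it, at -9.15, -9.23, -9.02 and -7.38. On the WIN1SRDX arrays it stood at -0.22, -1.83, -1.53 and -0.99. The 3 groups did not overlap, in the order WIN1SRDX, wild type, MYB106SRDX. The mean RSL4 signal was at least 18.04-fold lower in MYB106SRDX than in wild type (measured means -8.70 and -2.83) and 3.24-fold higher in WIN1SRDX, a log2 difference of 1.69 ± 0.45 (SE, n = 4).

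RHD2, the NADPH oxidase also known as RBOHC, was detected on every array. It read -2.03, -2.44, -1.89 and -2.15 in wild type and -3.22, -3.53, -1.30 and -1.01 in MYB106SRDX. The MYB106SRDX arrays therefore split, with replicates 1 and 2 below and replicates 3 and 4 above every wild-type array. The difference of the means was -0.13 ± 0.57 (SE, n = 4), and it took the other sign without replicate 1 (0.18) or 2 (0.29) of MYB106SRDX and on 3 other scalings or background corrections (0.05 to 0.40). On the WIN1SRDX arrays RHD2 read -0.78, -2.46, -1.63 and -1.06, with replicate 2 below every wild-type array and the other 3 above all of them, and the difference was 0.65 ± 0.57 (SE, n = 4).

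COBL9, a COBRA-like protein attached to the outer face of the membrane and needed for hair growth, read -1.71, -1.90, -1.16 and -1.49 in wild type. It was below background on every MYB106SRDX array, at -8.31, -9.22, -9.03 and -9.18. In WIN1SRDX it read 0.63, -0.82, -0.09 and 0.32. COBL9 was at least 43.4-fold lower in MYB106SRDX than in wild type (measured means -8.93 and -1.57). It was 2.98-fold higher in WIN1SRDX than in wild type, by 1.58 ± 0.31 (SE, n = 4), with no overlap between the groups.

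**Figure D1:**
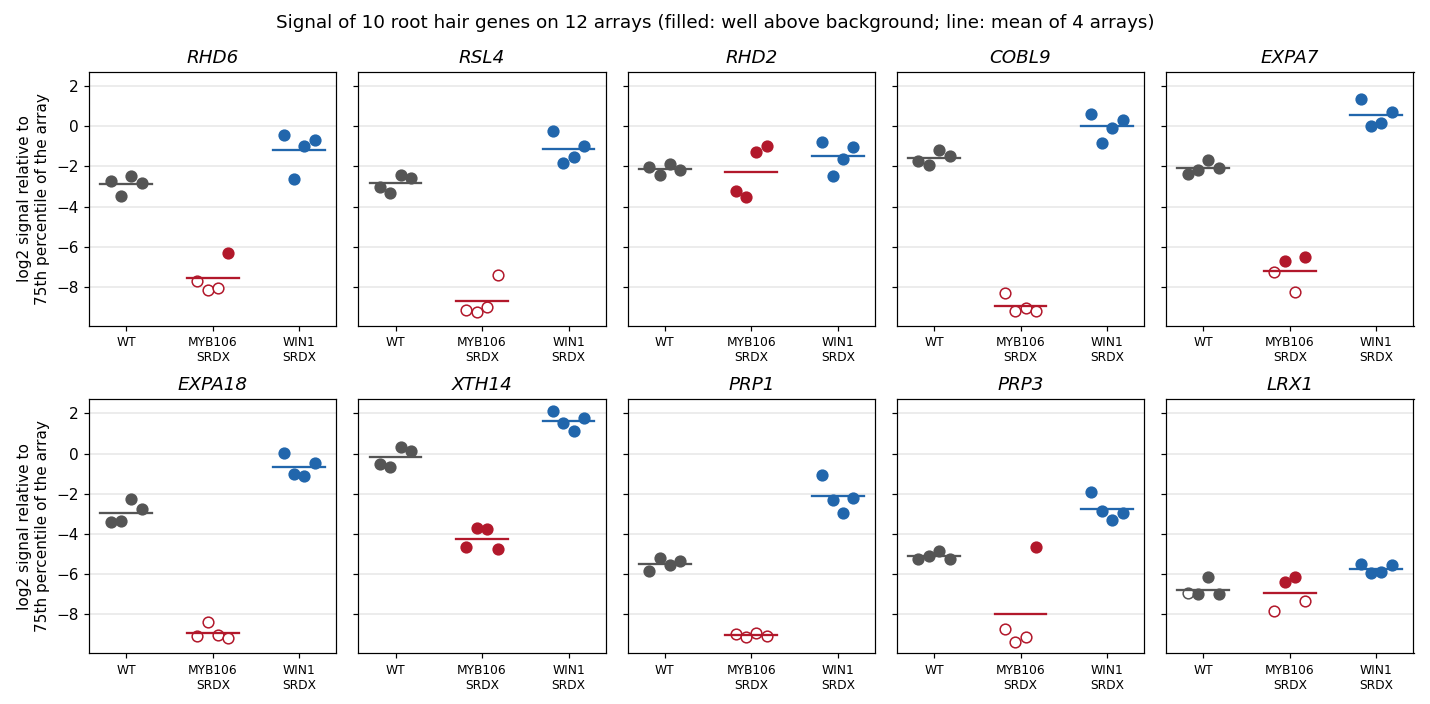
Log2 signal minus the array's 75th percentile (vertical axis) of the 10 root hair genes on each of the 12 arrays, by group. Open points are not well above background and short lines are group means. COBL9, EXPA18, RSL4 and PRP1 have open points on all 4 MYB106SRDX arrays, whereas the RHD2 points of the groups overlap.

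The expansins EXPA7 and EXPA18 loosen the wall where a hair emerges. EXPA7 read -2.35, -2.20, -1.66 and -2.10 in wild type and -7.27, -6.70, -8.28 and -6.52 in MYB106SRDX, where 2 of 4 arrays detected it. In WIN1SRDX it read 1.37, 0.00, 0.17 and 0.71. No array of a group reached the range of another, and the difference from wild type was -5.11 ± 0.40 (SE, n = 4) in MYB106SRDX and 2.64 ± 0.40 (SE, n = 4), or 6.24-fold, in WIN1SRDX.

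EXPA18 read -3.40, -3.34, -2.27 and -2.77 in wild type. It read -9.10, -8.37, -9.02 and -9.18 in MYB106SRDX, below background on each array, and 0.02, -0.997, -1.14 and -0.48 in WIN1SRDX. Again the 3 groups were apart. EXPA18 was at least 16.7-fold lower in MYB106SRDX than in wild type (measured means -8.92 and -2.94) and 4.91-fold higher in WIN1SRDX, by 2.30 ± 0.32 (SE, n = 4).

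XTH14 encodes a xyloglucan endotransglucosylase/hydrolase, an enzyme that cuts and rejoins the xyloglucan tethers of the wall. All 12 arrays detected it, as they did of the 10 genes only RHD2 besides, so its differences do not rest on signals near background. It read -0.50, -0.67, 0.33 and 0.11 in wild type, -4.68, -3.73, -3.76 and -4.77 in MYB106SRDX and 2.13, 1.53, 1.13 and 1.78 in WIN1SRDX. XTH14 was 16.6-fold lower in MYB106SRDX, by -4.05 ± 0.33 (SE, n = 4), and 3.54-fold higher in WIN1SRDX, by 1.82 ± 0.33 (SE, n = 4).

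PRP1 and PRP3 are proline-rich structural proteins of the wall. PRP1 was detected in wild type, at -5.83, -5.20, -5.54 and -5.36, and below background throughout MYB106SRDX, at -8.99, -9.13, -8.95 and -9.08. It read -1.07, -2.32, -2.95 and -2.21 in WIN1SRDX. PRP1 was 10.1-fold above wild type in WIN1SRDX, by 3.34 ± 0.32 (SE, n = 4), or 2.23 with normexp. Because wild type itself lay near the detection limit, the bound in MYB106SRDX was only at least 2.88-fold lower (measured means -9.04 and -5.48).

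PRP3 read -5.27, -5.09, -4.83 and -5.26 in wild type. On the MYB106SRDX arrays it read -8.76, -9.36, -9.15 and -4.66, and only the last was above background. Replicate 4 thus lay above all wild-type arrays while the other 3 lay far below them, and the difference of -2.87 ± 0.87 (SE, n = 4) carries that spread (-3.98 without replicate 4). In WIN1SRDX PRP3 read -1.90, -2.86, -3.33 and -2.97, all above wild type, by 2.35 ± 0.87 (SE, n = 4). That SE also holds the spread of MYB106SRDX (SD 2.23), against SDs of 0.61 in WIN1SRDX and 0.21 in wild type.

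LRX1, a leucine-rich repeat extensin that anchors in the wall of the hair, gave signals near the detection limit on many arrays. It read -6.95, -6.99, -6.15 and -7.00 in wild type, with the first array not well above background. In MYB106SRDX it read -7.82, -6.40, -6.14 and -7.35, with the first and last not well above background. Wild type and MYB106SRDX overlapped fully and differed by -0.16 ± 0.35 (SE, n = 4), with the sign turned without MYB106SRDX replicate 1 (0.14) or wild-type replicate 3 (0.05). The sign also turned with normexp (0.34), on other scalings (0.22 and 0.38) and with signals floored at the detection limit (0.13). In WIN1SRDX LRX1 read -5.52, -5.97, -5.89 and -5.54, above both other groups, and 1.04 ± 0.35 (SE, n = 4) above wild type (0.34 with normexp).

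**Figure D2:**
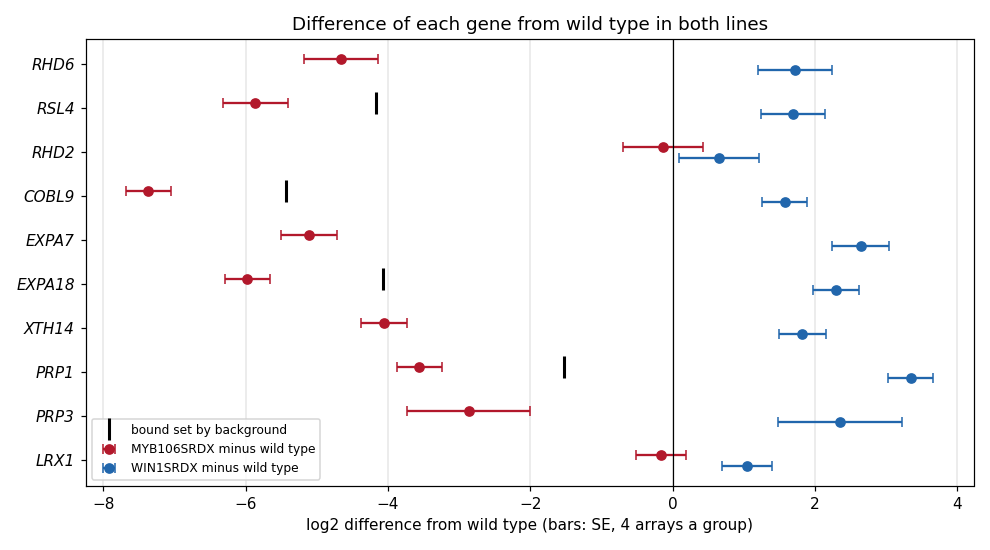
Log2 difference from wild type (horizontal axis) of each of the 10 genes in MYB106SRDX and WIN1SRDX, with the SE from the fit as bars (4 arrays a group). Black marks are the bounds for genes not detected on any MYB106SRDX array. All WIN1SRDX means lie to the right of 0 and 8 of 10 MYB106SRDX means lie at -2.87 or below.

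Both comparisons share the wild-type arrays. Against wild type, 7 of 10 genes had no overlap between groups in MYB106SRDX and 8 of 10 in WIN1SRDX. Of all tested genes, 52.7% had no overlap in MYB106SRDX (28.3% lower) and 43% had none in WIN1SRDX (22% higher). The exceptions in MYB106SRDX were RHD2, PRP3 and LRX1, and in WIN1SRDX they were RHD6 and RHD2. Nothing about the 10 genes is read from these shares, since the genes were chosen on the same contrasts.

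Set directly against each other, MYB106SRDX was below WIN1SRDX in all 10 means, with a median difference of -6.64 (-5.87 with bounds). Groups did not overlap for 9 of the 10 genes, where 34.7% of all tested genes had no overlap (19.7% lower in MYB106SRDX). COBL9 was at least 129.3-fold lower in MYB106SRDX, EXPA18 at least 82.1-fold, RSL4 at least 58.4-fold and PRP1 at least 29.2-fold. XTH14, detected on every array, was 58.7-fold lower, by -5.88 ± 0.33 (SE, n = 4). For LRX1 the difference was -1.20 ± 0.35 (SE, n = 4), which normexp reduced to -0.000196, and for RHD2 -0.78 ± 0.57 (SE, n = 4) with overlapping groups.

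Within WIN1SRDX and wild type the genes tended to be high or low on the same arrays. Replicate 1 of WIN1SRDX was the highest array of its group in 10 of 10 genes, and replicate 2 was the lowest in 6 and replicate 3 in 4. In wild type, replicate 3 was the highest array in 9 of 10 genes. The order was more mixed in MYB106SRDX. There replicate 4 was highest in 5 genes and lowest in 2, and replicate 2 was lowest in 6 and highest in 2. The arrays lay on 3 slides that each held all groups, and within slides the median difference of the 10 genes was -4.34, -5.01 and -4.07 in MYB106SRDX and 2.83, 0.91 and 1.79 in WIN1SRDX. On the slide with the smallest WIN1SRDX difference, RHD6 was at -0.11 and RHD2 at -0.56 against wild type. On the slide of MYB106SRDX replicate 4, PRP3 was 0.61 and RHD2 1.15 above wild type.

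Other genes known from root hairs, 39 in number, were listed apart from these 10, and 37 of them could be tested. In MYB106SRDX, 24 of the 37 fell and 6 rose against wild type, where 52.2% of all tested genes passed (28.6% fell and 23.6% rose). The median difference over the list was -2.50 (-1.52 with bounds) against -0.05 over all tested genes. In the fit across all genes, MRH6 (adjusted p = 1.54e-07), the peroxidase gene RHS18 (adjusted p = 2.85e-07), the bHLH gene LRL3 (adjusted p = 8.79e-07) and PIP5K3, a lipid kinase of the hair tip (adjusted p = 2.03e-06), had the lowest p-values among those that fell. None of the 4 was detected on any MYB106SRDX array, and they were at least 18.8-fold, 18.6-fold, 44.8-fold and 5.53-fold lower. These bounds depend on the processing, and under other settings the log2 differences came down to -2.08, -1.89, -3.19 and -0.73.

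Of those that rose in MYB106SRDX, OXI1, an AGC kinase that responds to hydrogen peroxide, moved farthest. It read -4.20, -4.01, -3.32 and -3.74 in wild type, 1.00, 0.08, -0.04 and 1.73 in MYB106SRDX and -0.93, -3.12, -1.28 and -1.81 in WIN1SRDX. OXI1 was thus highest in the line where most listed genes were lowest, by 4.51 ± 0.50 (SE, n = 4; adjusted p = 4.25e-05). The potassium transporter gene TRH1 rose by 0.63 ± 0.10 (SE; adjusted p = 0.000533), RHD4, a phosphoinositide phosphatase gene, by 0.59 ± 0.12 (SE; adjusted p = 0.00166), and RHD3, a GTPase gene of the endoplasmic reticulum, by 0.49 ± 0.10 (SE; adjusted p = 0.00204).

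In WIN1SRDX, 15 of the 37 listed root hair genes rose, 6 fell and 16 did not pass, with a list median of 0.76, where 32.6% of all tested genes passed (17.4% rose and 15.2% fell). The 15 include genes that passed the filter on dim probes only through WIN1SRDX, the group where they were high. Only 2 or 3 wild-type arrays and no MYB106SRDX array detected them. The same genes count among those lower in MYB106SRDX between the lines. Without wild-type replicate 1, 11 rose and 2 fell, and with the scale of the authors' table there were 16 that rose and 2 that fell. RHS18 rose by 2.96 ± 0.29 (SE; adjusted p = 8.18e-05), RHS15 by 3.00 ± 0.37 (SE; adjusted p = 0.00029), MRH6 by 1.97 ± 0.26 (SE; adjusted p = 0.000454) and the bHLH gene LRL2 by 1.82 ± 0.28 (SE; adjusted p = 0.000958). RHS18 read 0.86, 0.36, -0.78 and 0.25 in WIN1SRDX against -3.20, -2.78, -2.59 and -2.61 in wild type, which puts each WIN1SRDX array above each wild-type array.

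Among the genes that fell in WIN1SRDX, FER, a receptor kinase of growing cells, fell by 0.75 ± 0.13 (SE; adjusted p = 0.00209), ROP2, the small GTPase that marks the site of a hair, by 0.79 ± 0.16 (SE; adjusted p = 0.00366) and CSLD3, a cellulose synthase-like gene, by 0.96 ± 0.28 (SE; adjusted p = 0.0244). RSL1, the close relative of RHD6, fell by 1.55 ± 0.48 (SE; adjusted p = 0.029), read at -5.90, -6.59, -5.21 and -5.19 in wild type and -6.87, -8.88, -6.65 and -6.70 in WIN1SRDX. RSL2, a relative of RSL4 that was singled out after its values were seen, read -2.38, -3.09, -1.82 and -2.17 in wild type and -3.27, -5.46, -3.63 and -2.88 in WIN1SRDX. RSL2 fell by 1.44 there (adjusted p = 0.0466), and in MYB106SRDX it was not detected and at least 24.9-fold lower (adjusted p = 5.56e-06). Within the same bHLH family, RHD6 and RSL4 therefore had higher means in WIN1SRDX than in wild type, and RSL1 and RSL2 had lower ones, a difference between family members that was not tested. The WIN1SRDX calls of CSLD3, RSL1 and RSL2 depended on the processing and on single arrays. RSL1 did not pass with normexp (a difference of -0.28, adjusted p = 0.343), with the authors' table (adjusted p = 0.0627) or with only the compared groups in the fit (adjusted p = 0.056). CSLD3 did not pass with the authors' table (adjusted p = 0.054), and RSL2 failed with the slide as a block (adjusted p = 0.0692) and in 5 other settings that kept all arrays (adjusted p = 0.0537 to 0.0856). Of the arrays, the call of CSLD3 was lost without WIN1SRDX replicate 2 or 3 or wild-type replicate 1, 3 or 4 (adjusted p = 0.0527 to 0.0702), that of RSL1 without wild-type replicate 1, 3 or 4 (0.056 to 0.0804), and that of RSL2 without WIN1SRDX replicate 2 or 3 or wild-type replicate 1, 3 or 4 (0.0588 to 0.117).

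Between the lines, 26 of the 37 listed genes were lower in MYB106SRDX and 6 were higher, where 42.6% of all tested genes passed (24.2% lower and 18.3% higher). MRH6 (adjusted p = 2.66e-08), RHS18 (adjusted p = 2.66e-08), RHS12 (adjusted p = 4.99e-07) and LRL3 (adjusted p = 5.81e-07) were at least 73.6-fold, 144.8-fold, 65.2-fold and 60.1-fold lower. CSLD2 was higher in MYB106SRDX by 1.04 (adjusted p = 0.000268), RHD3 by 0.67 (adjusted p = 0.000474), TRH1 by 0.58 (adjusted p = 0.00134) and OXI1 by 2.48 (adjusted p = 0.0027).

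**Figure D3:**
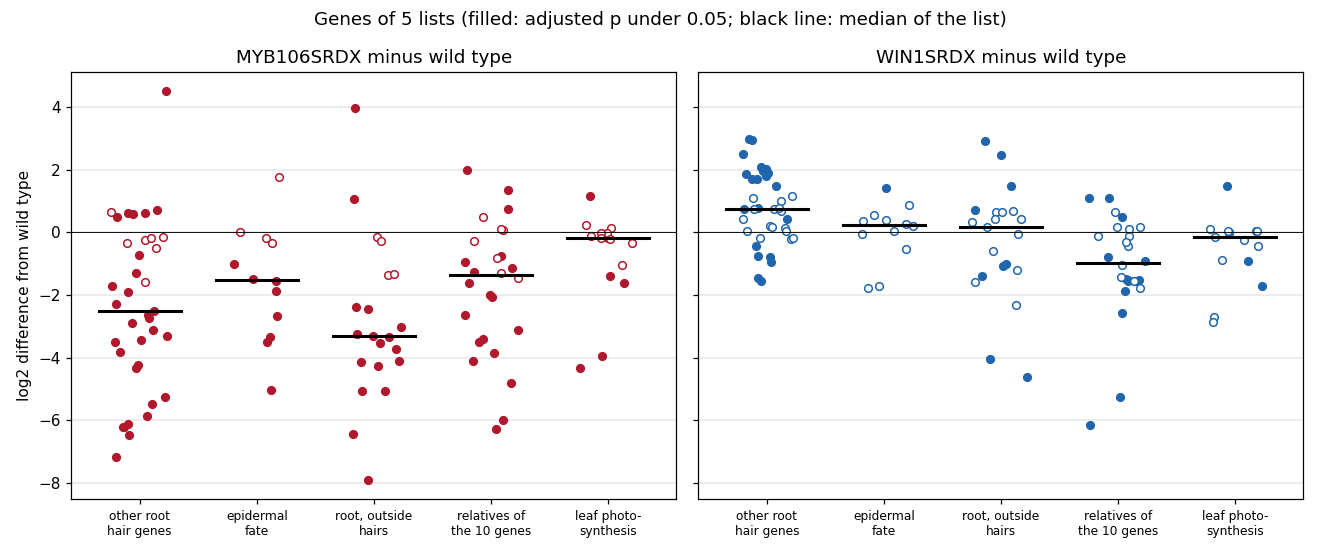
Log2 difference from wild type (vertical axis) of every tested gene of the lists in MYB106SRDX and WIN1SRDX, with a line at each list's median. The other root hair genes have a median of -2.50 in MYB106SRDX and 0.76 in WIN1SRDX, and the leaf genes have medians of -0.18 and -0.16.

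The genes that decide between hair and non-hair fate in the root and leaf epidermis were 12 in number and all tested. In MYB106SRDX 8 fell and none rose, with a median of -1.53, where 28.6% of all tested genes fell and 23.6% rose. WER, the MYB factor of non-hair cells, was not detected in MYB106SRDX and at least 11.6-fold lower (adjusted p = 1.64e-05). The zinc finger gene JKD fell by 2.66 (adjusted p = 3.38e-05), CPC, the small MYB that promotes hairs, by 1.56 (adjusted p = 0.000764) and GL2, the homeodomain factor that blocks hairs, fell by 3.501 (adjusted p = 0.0013). CPC, which promotes hairs, and WER and GL2, of the non-hair fate, thus all fell in that line. Values of whole seedlings do not tell root from leaf epidermis. In WIN1SRDX 1 of the 12, the bHLH gene GL3, rose by 1.43 (adjusted p = 0.0159), none fell and the median was 0.24. Of all tested genes, 17.4% rose and 15.2% fell there. Without wild-type replicate 1 GL3 did not pass (adjusted p = 0.0509). GL3 also passed the filter on dim probes only through WIN1SRDX, the group where it was high. In wild type and in MYB106SRDX 3 of 4 arrays detected it, so nothing is read from its calls. Between the lines 7 were lower in MYB106SRDX and none was higher, where 24.2% of all tested genes were lower and 18.3% higher. Among the 7 were WER (at least 17.1-fold, adjusted p = 1.37e-05), JKD by -2.13 (adjusted p = 0.000234), the receptor-like kinase gene SCM by -1.39 (adjusted p = 0.000973) and CPC by -1.59 (adjusted p = 0.000977).

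Because RNA came from whole seedlings, the share of roots in a sample is part of every value, and fewer hair cells and less RNA per hair cell cannot be told apart. Genes of root cells other than hairs were therefore set beside them. Of 22, 21 were tested, and in MYB106SRDX 15 fell and 2 rose, with a median of -3.30 (-2.45 with bounds), where 52.2% of all tested genes passed and 28.6% fell. On a MYB106SRDX array 12 to 14 of the 21 were well above background, on a WIN1SRDX array 18 to 20 and on a wild-type array all 21. By array, the median shift of this list from wild type ran from -3.44 to -2.97 in MYB106SRDX and that of the 10 genes from -4.65 to -4.02. Of the 10 genes, only 2 to 5 were well above background on a MYB106SRDX array. Both shifts thus rest partly on signals near background, and their sizes are not compared. The part of the shift of the other root genes in the result for the 10 genes was not tested.

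CASP1 and CASP5 help to lay down the Casparian strip, the barrier of the root endodermis, and PHO1 loads phosphate into the root xylem. PHO1 fell by 3.24 (adjusted p = 4.84e-06), CASP5 by at least 7.90-fold (adjusted p = 7.69e-06) and CASP1 by 7.90 on the log2 scale (adjusted p = 8.42e-06) in MYB106SRDX. Only 2 of 4 MYB106SRDX arrays detected CASP1, so its difference rests partly on signals near background and came down to -5.06 under other settings. WOX5, a homeobox gene of the root stem cell niche, went the other way. WOX5 read -5.05, -5.69, -4.96 and -4.90 in wild type, -1.43, -0.97, -1.55 and -0.69 in MYB106SRDX and -3.58, -4.17, -2.99 and -3.89 in WIN1SRDX. It rose by 3.99 ± 0.28 (SE, n = 4, adjusted p = 2.9e-06) in MYB106SRDX. LBD16, a gene of lateral root founding, rose there by 1.06 (adjusted p = 0.0127).

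In WIN1SRDX the same list had 4 genes that rose, 5 that fell and 12 that did not pass, with a median of 0.18. Of all tested genes, 17.4% rose and 15.2% fell there. LBD16 rose by 2.47 (adjusted p = 0.000278), the root stem cell gene PLT2 by 2.92 (adjusted p = 0.000767), WOX5 by 1.495 (adjusted p = 0.0029) and SCR, a gene of the endodermis and stem cell niche, by 0.72 (adjusted p = 0.00578). CASP5 was at least 8.37-fold lower (adjusted p = 6.34e-05), SKOR, a potassium channel gene of the stele, fell by 4.05 (adjusted p = 0.000415) and CASP2 fell by 1.02 (adjusted p = 0.0197). The call of CASP2 was lost without WIN1SRDX replicate 3 or wild-type replicate 3 or 4 (adjusted p = 0.0501 to 0.0562). By array the median shift of this list ran from -0.82 to 0.56 in WIN1SRDX, on both sides of 0, and that of the 10 genes from 1.36 to 2.55. Between the lines 16 of the 21 were lower in MYB106SRDX and 1 was higher, where 24.2% of all tested genes were lower and 18.3% higher. Among the lower ones were MYB36 by -4.49 (adjusted p = 8.81e-06), PLT2 by at least 18.9-fold (adjusted p = 9.17e-06) and BRN2 by at least 7.56-fold (adjusted p = 1.14e-05). WOX5 was higher by 2.49 (adjusted p = 8.74e-05).

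The 15 genes of photosynthetic leaf cells gave a median of -0.18 in MYB106SRDX, where 1 rose and 4 fell, and of -0.16 in WIN1SRDX, where 1 rose and 2 fell. Of all tested genes, 23.6% rose and 28.6% fell in MYB106SRDX, and 17.4% rose and 15.2% fell in WIN1SRDX. RBCS1B, a small subunit gene of Rubisco, rose by 1.17 (adjusted p = 0.00207) in MYB106SRDX and by 1.49 (adjusted p = 0.00117) in WIN1SRDX. Of the light-harvesting genes, LHCB2.2 fell by 4.34 (adjusted p = 0.00713) and LHCB2.1 fell by 3.94 (adjusted p = 0.00874) in MYB106SRDX, with LHCB2.2 at -3.38, -7.26, -3.88 and -7.79 there and at -0.50, -0.42, -2.08 and -1.94 in wild type. LHCB3 fell by 1.39 (adjusted p = 0.0104) and LHCB1.3 by 1.61 (adjusted p = 0.0161) in that line, and LHCB1.3 by 1.71 (adjusted p = 0.0197) in WIN1SRDX. RBCS2B was lower in WIN1SRDX than in wild type by 0.93 (adjusted p = 0.0147) and than in MYB106SRDX by 0.75 (adjusted p = 0.0294), with replicate 2 of WIN1SRDX left out because its spot was marked as an outlier. The call of LHCB1.3 in WIN1SRDX was lost with the slide as a block (adjusted p = 0.0501) and without WIN1SRDX replicate 1 or wild-type replicate 2 (adjusted p = 0.0529 and 0.0522), and that of RBCS2B between the lines without MYB106SRDX replicate 1 or 4 or WIN1SRDX replicate 3 or 4 (adjusted p = 0.0681 to 0.0958).

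**Figure D4:**
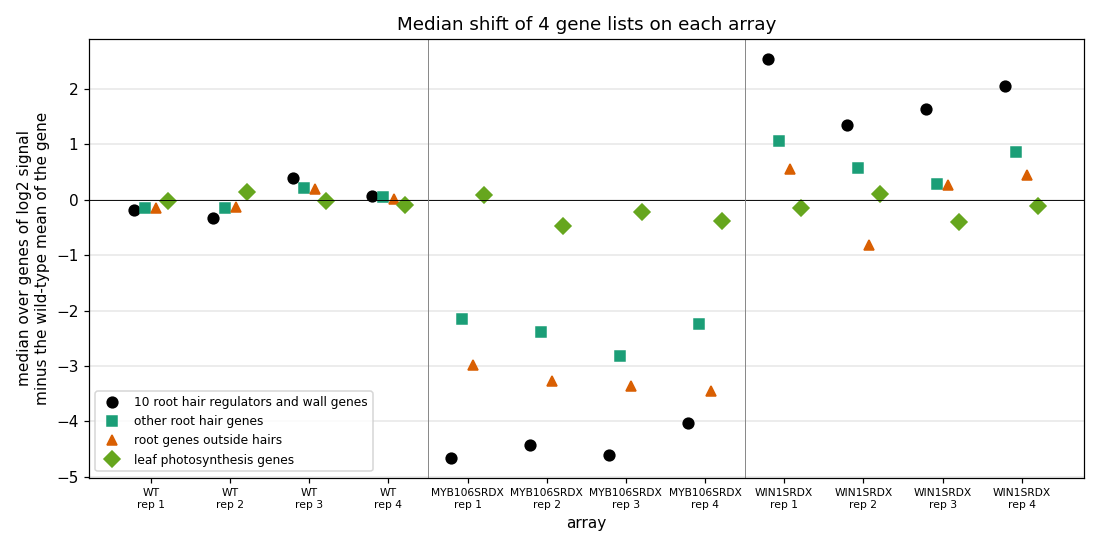
Median over the genes of a list of the log2 signal minus the gene's wild-type mean (vertical axis), for each of the 12 arrays. The 10 root hair genes lie between -4.65 and -4.02 on MYB106SRDX arrays and between 1.36 and 2.55 on WIN1SRDX arrays, the other root genes between -3.44 and -2.97 and between -0.82 and 0.56, and the leaf genes between -0.47 and 0.11 on both. On a MYB106SRDX array 2 to 5 of the 10 genes and 12 to 14 of the 21 other root genes were well above background.

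Relatives of the 10 genes from the same families, known mainly from other tissues, numbered 26 and were all tested. In MYB106SRDX 16 fell and 3 rose, and the median was -1.37, where 28.6% of all tested genes fell and 23.6% rose. In WIN1SRDX 11 fell and 3 rose, and the median was -0.99, where 15.2% of all tested genes fell and 17.4% rose. The median of the relatives was thus below 0 in both lines. That of the 10 root hair genes was above 0 in WIN1SRDX, but they were chosen with these contrasts known. Nothing is therefore read from that contrast with the relatives.

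Among the xyloglucan enzymes XTH22, known as the touch-induced gene TCH4, read 5.59, 5.55, 5.67 and 5.41 in wild type, 2.98, 3.06, 2.99 and 2.58 in MYB106SRDX and 3.65, 3.74, 4.04 and 4.59 in WIN1SRDX. XTH22 fell by 2.65 (adjusted p = 3.43e-06) in MYB106SRDX and by 1.55 (adjusted p = 0.000332) in WIN1SRDX, where its relative XTH14 had a higher mean than wild type. XTH9 fell by 3.85 (adjusted p = 8.47e-05) in MYB106SRDX, and XTH15 fell by 1.86 (adjusted p = 0.00158) in WIN1SRDX.

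Of the expansins, EXPA11 fell by 5.995 (adjusted p = 8.51e-06) in MYB106SRDX. EXPA11 read 2.47, 3.12, 2.59 and 2.83 in wild type, -1.70, -4.76, -3.12 and -3.41 in MYB106SRDX and 1.28, 1.00, 0.76 and 1.87 in WIN1SRDX, below wild type in both lines. In the extensin family AT4G18670 fell by 2.05 (adjusted p = 0.000139) in MYB106SRDX and fell by 1.499 (adjusted p = 0.00231) in WIN1SRDX, and LRX3 fell by 1.53 (adjusted p = 0.000423) in WIN1SRDX, where LRX1 had a higher mean.

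Of the NADPH oxidases, RBOHD, known from defence, rose by 1.34 (adjusted p = 0.000118) and RBOHF by 0.74 (adjusted p = 0.00263) in MYB106SRDX, and RBOHF by 0.50 (adjusted p = 0.0335) in WIN1SRDX. COBL2, a COBRA-like gene known from the seed coat, rose by 2.01 (adjusted p = 2.2e-05) in MYB106SRDX, in which COBL9 was not detected, and by 1.08 (adjusted p = 0.0026) in WIN1SRDX. COBL1 rose by 1.103 (adjusted p = 0.0156) in WIN1SRDX. There the call of RBOHF was lost with the slide as a block (adjusted p = 0.0654) and without WIN1SRDX replicate 3 or 4 or any wild-type array (adjusted p = 0.0538 to 0.0929), and that of COBL1 without wild-type replicate 1 (adjusted p = 0.0502).

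Between the lines 7 relatives were lower in MYB106SRDX, 4 were higher and 15 did not pass, where 24.2% of all tested genes were lower and 18.3% higher. EXPA11 by -4.47 (adjusted p = 9.24e-05), XTH9 by -3.41 (adjusted p = 0.000301), RBOHB by -3.78 (adjusted p = 0.00057) and EXPA6 by -2.10 (adjusted p = 0.00112) were lower. RBOHD by 1.17 (adjusted p = 0.000435), XTH15 by 1.94 (adjusted p = 0.000747), COBL2 by 0.92 (adjusted p = 0.00412) and LRX3 by 0.78 (adjusted p = 0.00992) were higher.

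Likeness to the 10 genes was measured as the root mean square difference, over the 12 arrays, between a gene's log2 profile and the median profile of the 10, each centred on its own mean. The median over all tested genes was 2.86. The 6 closest genes with a symbol were MES15 (0.228), MOP10 (0.392), RSH4 (0.420), NPY4 (0.428), RAP2.11 (0.485) and NPY2 (0.578). In the RefSeq names MES15 and RSH4 also carry the names root hair specific 9 and 4, and MOP10 is proline-rich protein-like 1. MES15 averaged -4.96 ± 0.29 in wild type, -9.34 ± 0.10 in MYB106SRDX, where no array detected it, and -2.82 ± 0.60 in WIN1SRDX (SD, n = 4).

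MOP10 averaged -0.89 ± 0.49 in wild type, -5.77 ± 0.72 in MYB106SRDX and 1.75 ± 0.52 in WIN1SRDX (SD, n = 4). The likeness of the 10 genes to their own median profile was closest for RHD6, at 0.494, and poorest for RHD2 and LRX1, at 2.61 and 2.46. For RHD2, 4501 tested genes outside the 10 lay closer to that profile, and for LRX1, 3186 did. RHD2 and LRX1 are thus no nearer to the shared pattern than many genes of the array. The other 8 genes lay between 0.494 and 1.26, and genes outside the 10 were closer than each of them too. Their number ran from 10 for RHD6 and EXPA7 to 208 for COBL9 and 218 for PRP3. The profile is the median of the same 10 genes, so each of these is set against a profile that includes it.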

How the data were processed

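Per the labels, total RNA of each of the 12 samples was labelled with Cy3 and hybridised to a 1-colour Agilent array. Per the file headers, scanning was read with Agilent Feature Extraction 9.1.3.1, which made the deposited processed intensity by background correction. In the authors' table each value is a ratio, the processed intensity divided by a constant of the group (1083 for MYB106SRDX, 995.6 or 995.7 for WIN1SRDX, 1264 for wild type; 100% of 37478 probes within 1%). It is linear and not centred. The sources used here do not say why the constants differ. Its column medians for replicates 1 to 4 were 0.0698, 0.0598, 0.0652 and 0.0758 in MYB106SRDX, 0.0977, 0.0867, 0.137 and 0.110 in WIN1SRDX, and 0.0996, 0.0966, 0.0993 and 0.109 in wild type.

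The deposited intensities were put on a log2 scale and set relative to each array's 75th percentile. Controls and outlier-marked spots were not used, spots of a probe were averaged, and the brightest probe of a locus was used. A gene was tested if every array of 1 group or more had it well above background (20267 of 25665 loci). All 12 arrays entered 1 limma fit (limma 3.58.1, R 4.3.3, lmFit and eBayes, 9 residual degrees of freedom), with Benjamini-Hochberg adjustment over all tested genes, and passed, rose and fell mean an adjusted p under 0.05. The fit was tested on simulated data. A bound compares the brighter group's mean with that of the dimmer group after raising each of its signals to the lowest one well above background on that array. Probe positions were not used, so signal from related genes or from a transgene is not separated, and the number of arrays limits the precision.

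The 10 genes and the lists were chosen with earlier results of these data known. Of each list, up to 4 genes with the lowest adjusted p in each direction and comparison are named, with RSL2 added; the values of 1 gene so chosen are not reported here. Of the likeness ranking, the 6 closest genes with a symbol are named. Symbols follow a table of RefSeq names (TAIR10.1, names only), with 25449 loci matched, and common names from the lists where that table holds another (COBL9 there is SHV2, WIN1 is SHN1). Alternatives were normexp (offset 50) on the median signal and median background, since the files used here have no mean signal column, other scalings, filters, a floor, other probe and spot rules, the slide or the replicate number as a block, fits of only the groups compared, and leaving out each array.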

Additional observations from a re-analysis of the deposited data

Results flagged for a closer look

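In groups of 4 arrays, the highest or lowest array was set against the other 3 for each of the 69 genes named, and 10 of 206 groups (4.85%) held an array that stood apart by more than Dixon's 95% critical value. Chance gives about 1 in 20. Values are levels on the log2 scale used above.

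Of the 10 root hair genes, RSL4 read -7.38 on replicate 4 of MYB106SRDX, where the other 3 arrays lay between -9.23 and -9.02, none of them above background. PRP3 read -4.66 on the same array, where the others lay between -9.36 and -8.76, and only that array was above background. LRX1 read -6.15 on wild-type replicate 3, against -7.00 to -6.95.

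Among the other genes, RSH4 also stood apart on replicate 4 of MYB106SRDX, at -6.88 against -8.99 to -8.80, none well above background. XTH22 was low on that array, at 2.58 against 2.98 to 3.06. LRX3 was high on replicate 2 of that line, at -0.20 against -1.04 to -0.91. In WIN1SRDX, RSL1 was low on replicate 2, at -8.88 and below background against -6.87 to -6.65. PLT2 was low on the same array, at -3.87 against -2.50 to -2.30. XTH9 was low on replicate 1, at 2.72 against 4.21 to 4.24. PLT2 was high on wild-type replicate 3, at -5.11 against -5.91 to -5.85.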

How the results depend on the processing

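Of 576 recomputed differences of the 10 root hair genes, 542 moved by less than 1 SD of the arrays and 34 by more. The sign turned in 11, all for RHD2 or LRX1 in MYB106SRDX against wild type. With normexp the median difference of the 10 genes was -1.80 in MYB106SRDX against wild type and -3.36 between the lines. With genes detected on all 12 arrays, RHD2 and XTH14 alone were left of the 10, at a median of -2.09 and -3.33. With signals floored at the detection limit it was -5.75 between the lines. Leaving out 1 array at a time gave medians of -4.54 to -4.20, 1.56 to 2.06 in WIN1SRDX, and -6.91 to -6.33.

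Of the other root hair genes, 30 passed in MYB106SRDX, 21 in WIN1SRDX and 32 between the lines. Under that filter 17 could be tested and 12, 9 and 12 passed, since genes not detected in MYB106SRDX drop out. Without 1 array, 29 to 31, 13 to 19 and 28 to 31 passed, the 13 without wild-type replicate 1. Of 1691 recomputed calls of named list genes, 59 were lost and none turned; among them LHCB1.3 (adjusted p = 0.0618) and LHCB3 (0.0559) in MYB106SRDX on the array median scale and LRX3 between the lines (0.0506) on that of the authors' table.

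Centring arrays on their median shifted all genes by 0.54 in MYB106SRDX against wild type and by 0.49 between the lines, and the authors' table shifted them by 0.12 in WIN1SRDX and by -0.16 between the lines. The share of rises among calls over all genes went from 45.2% to 75.9% and from 43.1% to 77.1% with the median, and from 53.4% to 66.5% and from 43.1% to 25.6% with the authors' table.

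Same-numbered arrays did not deviate together (correlations of -0.164 to 0.195 between their deviations from the group means, 1 of 12 best with its own number). With the replicate number as a block, 31, 20 and 30 root hair genes and 10033, 5860 and 8012 of all genes passed, against 10587, 6605 and 8624 without it. Under that block LHCB1.3 (adjusted p = 0.0559) and RBOHF (0.0634) in WIN1SRDX and RBCS2B between the lines (0.0535) did not pass.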
